A study of Mus musculus with 23 samples.

Results

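ERF, ETV3, ETV6 and ELK3 are DNA-binding proteins of the ETS family that mainly repress transcription. Their 4 gene rows, Erf, Etv3, Etv6 and Elk3, were taken by symbol from the 53607 gene rows of the count table, and all 4 were among the 20372 genes with enough counts to be tested. The RNA came from mouse embryonic stem cells of the Raslox/lox background, which carry N-Ras-/- and H-Ras-/- alleles, a lox-flanked RAS allele and the ubiquitously expressed Ubiq-CreERT2, a Cre recombinase that hydroxytamoxifen (OHT) switches on. Cells were either ERF wild type or ERF knockout by label, and either untreated (RAS present) or treated with OHT for 6 days (RAS deleted). They were kept in 2iL, a medium with the MEK inhibitor PD0325901, the GSK3 inhibitor CHIR99021 and LIF, or spent 48 hours in FA (12 ng/ml FGF2 and 20 ng/ml Activin A), a change by which such cells take on an epiblast-like state. Of the 8 resulting groups, 7 had 3 libraries each, and 1, the wild-type line in FA without OHT, had 2. OHT was given only to the groups with RAS deleted, so effects of the drug cannot be told apart from effects of the deletion, and all 8 groups lack N-Ras and H-Ras by genotype. How the ERF knockout was made, and whether it is 1 clone, is not given in the sources used here.

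ETS proteins bind DNA at sites with a GGAA core, and repressors and activators of the family can compete for the same sites. ERK, the kinase at the end of the RAS, RAF and MEK cascade, phosphorylates ERF and drives it out of the nucleus, so ERF represses when ERK is quiet. ETV3 is the closest relative of ERF; ETV6, also called TEL, recruits corepressors and can form chains through its pointed domain; ELK3, also called Net, partners with the serum response factor and turns from repressor to activator when ERK phosphorylates it. In mouse embryonic stem cells, FGF signals through RAS and ERK are needed to leave the naive state, which 2iL holds by blocking MEK.

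Library totals ran from 16221640 to 29874207 counts. The 8 naive marker genes summed to 3390 to 4171 CPM (counts scaled to a common library size with TMM factors) in the 2iL libraries and to 595 to 2507 in FA, the top of that range being ERF wild type with RAS deleted (1711 to 2507), where the sum of the 4 epiblast-like markers was 102 to 291 CPM against 343 to 619 in the other FA libraries. Of these 4, Otx2 went the other way and was higher there than in the reference line in FA (log2 1.03, edgeR adjusted p 0.000191). Sums follow their most abundant markers, so markers that passed in the direction opposite to their sum are named beside it. Mesoderm markers (T and Mixl1) summed to at most 1.41 CPM and fibroblast markers to at most 7.35 CPM in every library. The ERF wild-type libraries numbered 1 stood apart in all 4 of their groups: the 573 genes of chromosome 8 had a median 0.22 to 0.33 above the all-library median on the log2 scale, against -0.10 to 0.00 in the other 19 libraries. The knockout-labelled libraries numbered 1 were likewise higher than the others of their groups on chromosome 11, by a smaller amount (0.12 and 0.11 in 2iL and 0.03 and 0.00 in FA, against -0.10 to 0.01). None of the 4 members lies on either chromosome, and member results whose call changes without the 4 wild-type libraries are given with their value. The knockout-labelled libraries numbered 1 were left out only singly, not together. The chi-square per degree of freedom between replicates was 6.82 to 44.9 in the 7 wild-type pairs that hold a library numbered 1 and 3.04 to 9.92 in the other 3. Nothing in the labels says whether replicates were separate cultures or what a shared number stands for, so p-values measure the spread between these libraries, and its source was not tested.

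The sequences that bear most directly on what follows are the part of Erf that separates its 2 annotated transcripts and the promoters of Erf and Elk3, the pair whose level was raised together in 2iL under the ERF knockout label. Erf lies on the minus strand of chromosome 7 (chr7:25242560-25251104, GRCm38.p6). In the GENCODE M21 annotation of GRCm38, Erf-201 has 4 exons and 3505 bases, and Erf-202 has 690 bases: it shares the coding parts of exons 1 to 3 but reads on from the end of exon 3 through the whole 102 bases of the following intron, and ends within exon 4. The stretch at that boundary is chr7:25245560-25245663, minus strand, with the last 30 bases of the shared exon in lower case and, in capitals, the 74 coding bases that only Erf-202 takes from the intron.
Erf-202 boundary: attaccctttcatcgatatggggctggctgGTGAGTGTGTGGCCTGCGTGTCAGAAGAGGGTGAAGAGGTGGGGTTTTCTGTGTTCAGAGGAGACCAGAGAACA

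The promoters come from RefSeq (GRCm38.p6), as the 250 bases before the start listed there (for Erf, the RefSeq gene record itself reaches further upstream, to the end coordinate given above): chr7:25250759-25251008 for Erf and chr10:93311160-93311409 for Elk3, both on the minus strand. Capitals mark GGAA or, for a match on the other strand, TTCC.
Erf promoter: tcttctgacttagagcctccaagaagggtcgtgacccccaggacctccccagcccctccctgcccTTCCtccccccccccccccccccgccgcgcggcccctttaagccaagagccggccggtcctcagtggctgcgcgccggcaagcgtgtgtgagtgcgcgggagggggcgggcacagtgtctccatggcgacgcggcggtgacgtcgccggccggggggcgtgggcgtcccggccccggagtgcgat
Elk3 promoter: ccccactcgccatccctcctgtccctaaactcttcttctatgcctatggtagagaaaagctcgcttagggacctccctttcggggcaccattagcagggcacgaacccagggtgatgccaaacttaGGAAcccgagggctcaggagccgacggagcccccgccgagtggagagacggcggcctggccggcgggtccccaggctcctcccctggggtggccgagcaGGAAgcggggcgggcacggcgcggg
Counting both strands, the Erf window held 1 GGAA, the Elk3 window 2, the Etv6 window 3 and the Etv3 window 6. Of 27025 RefSeq promoters cut to the same length, 93.4% held at least 1 and 8.7% held 6 or more. The longer motif CGGAA, which contains GGAA, occurred in 25.4% of promoters; the Etv3 window held 2 and the windows of the other 3 members none. GGAAG, which also contains GGAA, occurred in 63.6% of promoters, with 4 in the Etv3 window, 1 each for Erf and Elk3 and none for Etv6. The median promoter held 3 GGAA, more than the Erf or the Elk3 window. A match is a letter match only.

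Levels were first set side by side per transcript length, in TPM (a gene's share of all transcripts, scaled to a fixed total) as deposited, where genes can be compared. In the reference group (2iL, ERF wild type, RAS present), Erf stood at 27.7 ± 3.55 TPM (SD, n = 3), Etv3 at 6.10 ± 0.342, Etv6 at 4.22 ± 1.20 and Elk3 at 3.65 ± 1.07 TPM. Erf was the most abundant of the 4 in all 8 groups, from 18.4 TPM (ERF knockout, RAS present, FA) to 40.2 TPM (ERF knockout, RAS deleted, 2iL), while the other 3 stayed between 2.35 and 9.11 TPM. Among 27 ETS genes Erf ranked from place 2 to place 5 by mean TPM in every group. The ranks of Etv3 (9 to 12) and Etv6 (9 to 13) were lower, and Elk3 moved from place 12 to 16 in the other 6 groups to place 7 in both ERF knockout groups in 2iL. In the reference group the ETS genes above Erf were Etv5, an activator induced by ERK, Elf3, the widely expressed Gabpa, and Etv4 (61.4, 58.7, 40.4 and 35.3 TPM). Etv5 held place 1 in every group. In FA, Elf3 was above Erf only with ERF wild type and RAS deleted, and Etv4 only with ERF wild type and RAS present.

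**Figure D1:**
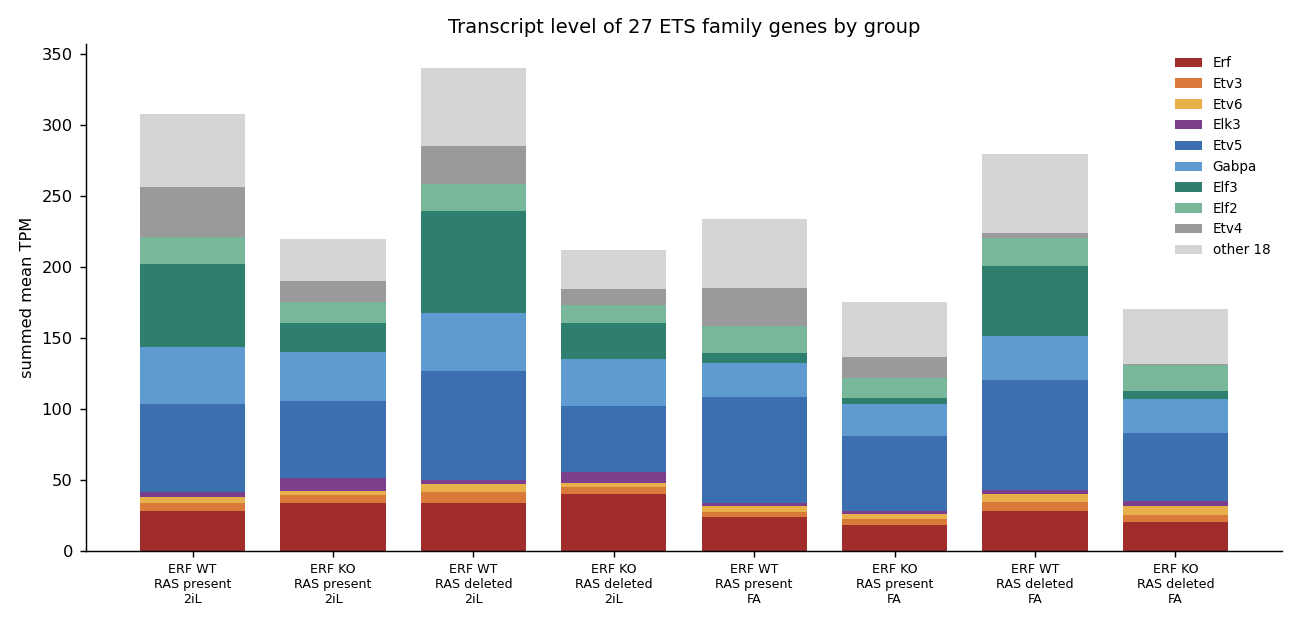
Summed mean TPM of 27 ETS family genes (vertical axis) in each of the 8 groups (bars); each colour is a gene and light grey joins the other 18 genes. Erf is the red block at the foot of each bar, and the whole bar falls from 308 TPM to 220 TPM between ERF wild type and ERF knockout in 2iL with RAS present.

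The 4 repressors together made up 13.6 ± 0.293% (SD, n = 3) of all ETS transcripts in the reference group and 14.8 ± 1.82% with RAS deleted in 2iL. Under the ERF knockout label in 2iL that share reached 23.4 ± 0.794%, and 26 ± 0.551% after RAS deletion. Most of it there was transcript of Erf, the gene that the label names, at 33.9 and 40.2 TPM. The rest was Elk3 (9.11 and 7.21 TPM), Etv3 (5.28 and 4.53 TPM) and Etv6 (3.11 and 3.2 TPM). In FA it lay at 14.4 ± 2.36% (n = 2) and 15.3 ± 0.41% with ERF wild type, and at 16.1 ± 1.17% and 20.6 ± 0.131% under the knockout label. The higher share came with a lower family sum, which went from 308 ± 36.1 to 220 ± 12.8 TPM in 2iL with RAS present and from 340 ± 27.3 to 212 ± 20.8 TPM with RAS deleted. In bulk RNA, fewer cells with a transcript and less of it per cell cannot be told apart.

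The knockout design makes Erf itself the first check. Within one gene, libraries were compared in TMM-scaled CPM, and a change passed at a Benjamini-Hochberg adjusted p under 0.05 in edgeR's quasi-likelihood test over all 20372 genes. In the 2iL groups with RAS present, Erf was at 70.6, 76.4 and 85.7 CPM in the 3 ERF wild-type libraries and at 129, 123 and 96.1 CPM in the 3 libraries labelled ERF knockout. With RAS deleted the values were 90.2, 83.0 and 90.1 CPM against 172, 153 and 130 CPM. The ranges did not overlap in either RAS state, and every knockout-labelled library was the higher one; the library numbered 3 was the lowest of the 3 in both knockout groups. Erf thus rose under the knockout label by 0.58 on the log2 scale (SE 0.13, edgeR adjusted p 0.00218) with RAS present and by 0.79 (SE 0.13, edgeR adjusted p 6.89e-05) with RAS deleted. With each library's effective transcript length in the fit the rises were smaller but still passed, at 0.37 and 0.52. In TPM, which is per transcript length, the ranges overlapped with RAS present (23.7 to 30.2 against 29.1 to 40.3 TPM). They did not with RAS deleted (32.4 to 34.2 against 35.9 to 45.5 TPM). A count over the whole gene does not show a small deletion or frameshift that leaves the transcript in place, so ERF knockout is used here as a label.

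In FA the Erf difference by ERF label did not pass. With RAS present, the values were 69.8 and 56.5 CPM with ERF wild type and 50.7, 64.8 and 56.9 CPM under the knockout label (log2 -0.14, SE 0.15, edgeR adjusted p 0.614). With RAS deleted, Erf stood at 74.4, 66.8 and 67.9 CPM against 49.3, 64.5 and 67.9 CPM (log2 -0.20, SE 0.13, edgeR adjusted p 0.23). Both pairs of ranges overlap. With effective lengths in the fit, the second difference was -0.42 and passed (edgeR adjusted p 0.00318).

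The deposited tables give for each gene and library a length averaged over its transcripts by their abundance, so a gene with a long and a short transcript has a mean length that moves with their mix. For Erf that mean was 2738, 2614 and 2916 bases in the reference group, and 3183, 3369 and 2932 bases under the knockout label in the same condition. Over all conditions it was 2740 ± 115 bases (SD, n = 11) with ERF wild type, from 2556 to 2949, and 3104 ± 196 bases (SD, n = 12) under the knockout label, from 2849 to 3369. In each of the 4 pairs of groups that share medium and RAS state, every knockout-labelled library lay above every wild-type library, although the overall ranges overlap. The mean difference over the 4 pairs was 363 bases (two-sided exact permutation test within pairs of groups, p 1.25e-05, which is the smallest that the 80000 arrangements can give, and 0.00015 adjusted over 12 tests). Without the wild-type libraries numbered 1 it was 370 bases (adjusted exact permutation p 0.009).

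The pattern of ranges apart in the same direction in all 4 pairs of groups was found for 12 of the 14109 genes examined for it, or 0.0851%. The other members did not show it: none of the remaining 11 tests of 4 members by 3 factors passed, the smallest p being that of Etv6, whose mean length was 502 bases longer in FA than in 2iL (exact permutation p 0.0413, adjusted 0.248). RAS deletion moved the mean Erf length by 56 bases (exact permutation p 0.413) and the medium by -21 bases (exact permutation p 0.756).

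With 2 annotated transcripts, the mean length of Erf can be read as a share of the short Erf-202, whose boundary sequence is printed above. For genes with a single GENCODE M21 transcript, 99.5% of deposited lengths matched the annotation within 1 base, so those transcript lengths were used. Any Erf transcript outside the annotation would distort the shares. An Erf sequence altered under the knockout label could distort them too, and this was not tested. In the reference group Erf-202 made up 27.2, 31.7 and 20.9% of Erf, and under the knockout label in the same condition 11.4, 4.82 and 20.4%. Wild-type groups averaged 25.7 to 29.7%, and knockout-labelled groups 12.2 ± 7.80% and 12.7 ± 9.16% in 2iL and 21.3 ± 1.62% and 10.7 ± 4.12% in FA (SD, n = 3, RAS present first). The 2 knockout-labelled libraries numbered 3 in 2iL, at 20.4 and 23.3%, stood nearest to wild type among the 2iL libraries of that label, and they were also the ones with the lowest Erf CPM of their groups.

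**Figure D2:**
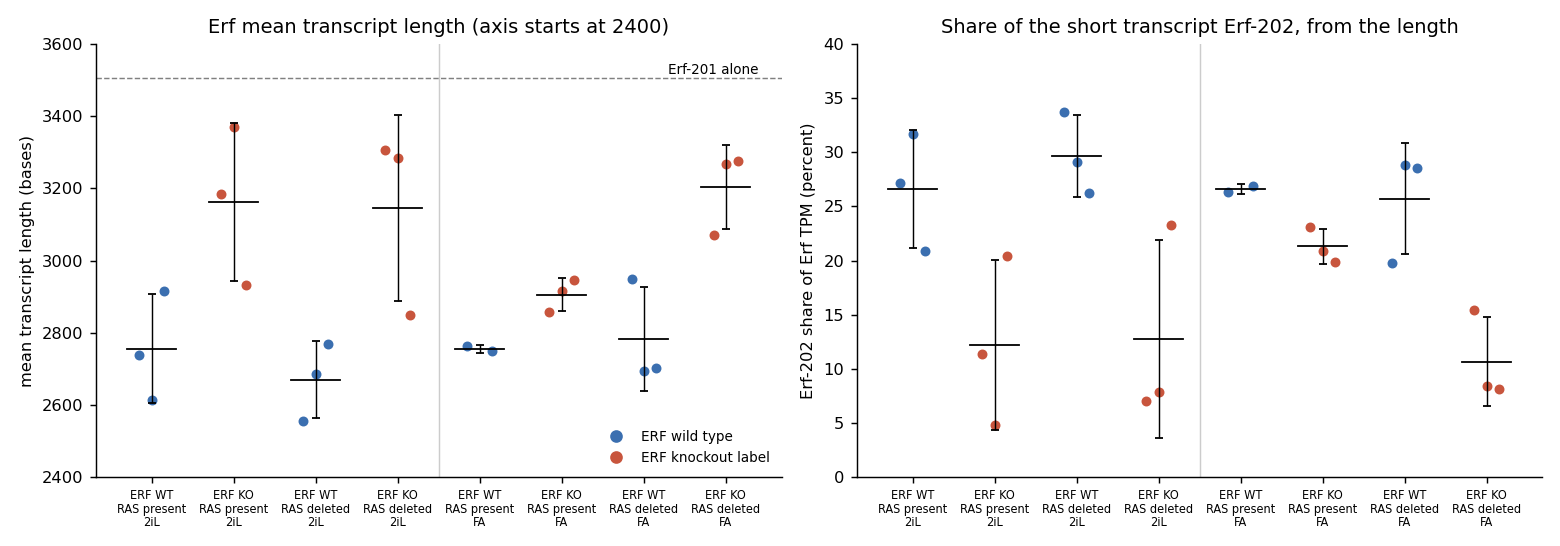
Left, mean Erf transcript length in bases (axis not from 0, dashed line at the 3505 bases of Erf-201); right, the share of Erf-202 in percent of Erf TPM derived from it. Points are libraries, horizontal bars group means and error bars SD; knockout-labelled libraries (red) lie above wild type on the left in each pair of neighbouring groups.

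Split in this way, the long transcript Erf-201 was on average higher under the knockout label in 2iL and lower in FA. In 2iL it stood at 20.4 ± 3.35 TPM (SD, n = 3) in the reference group and at 29.9 ± 6.33 TPM under the knockout label there, and at 23.4 ± 1.01 against 35.1 ± 6.38 TPM with RAS deleted. In FA it went from 17.2 ± 4.42 (n = 2) to 14.5 ± 1.21 TPM with RAS present and from 20.7 ± 0.429 to 17.8 ± 2.24 TPM with RAS deleted. Erf-202 was on average lower under the knockout label in all 4 pairs, from 7.35 ± 1.67 to 4.03 ± 2.23 TPM in 2iL with RAS present and from 7.26 ± 1.92 to 2.08 ± 0.615 TPM in FA with RAS deleted. These are values computed from 2 deposited columns, without a test of their own.

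Elk3 was the member with the largest fold by ERF label. In 2iL with RAS present it stood at 9.59, 6.07 and 7.11 CPM with ERF wild type and at 17.3, 18 and 19.3 CPM under the knockout label. With RAS deleted it stood at 7.53, 7.05 and 6.39 CPM against 16.1, 15.1 and 17.5 CPM. All 6 knockout-labelled 2iL libraries lay above all 17 other libraries, whose highest value was 9.59 CPM. Elk3 rose by 1.25 on the log2 scale (2.37-fold, SE 0.18, edgeR adjusted p 2.05e-05) and by 1.21 (2.32-fold, SE 0.19, edgeR adjusted p 2.05e-05), and it was the only member to pass at 2-fold or more for the ERF label. In FA its values under the knockout label, 6.11, 6.47 and 5.02 CPM with RAS present and 6.53, 5.14 and 7.34 CPM with RAS deleted, differed from wild type by 0.49 (edgeR adjusted p 0.176) and 0.13 (edgeR adjusted p 0.613); without the wild-type libraries numbered 1 the latter was 0.40 and passed (edgeR adjusted p 0.046).

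Elk3 is also the member with the fewest counts, 97 to 368 per library, and it overlaps a neighbour. On chromosome 10 (chr10:93247415-93311159, GRCm38.p6, minus strand) its end overlaps Cdk17, a cyclin-dependent kinase gene on the plus strand, by 3680 bases in RefSeq and by 19658 bases in GENCODE M21. The library kit keeps the strand, but whether the counting used it is not given in the sources used here, so reads in the overlap could have been split between them. Cdk17 also rose under the ERF knockout label, by 0.36 and 0.46 in 2iL and by 0.48 in FA with RAS deleted (edgeR adjusted p 0.00143, 8.12e-05 and 2.23e-05), against 1.25 and 1.21 for Elk3 in 2iL. With effective lengths in the fit it did not pass in 2iL with RAS present (0.37, edgeR adjusted p 0.0976) or in FA (0.37, edgeR adjusted p 0.066).

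Etv6 went the other way in 2iL. With RAS present it stood at 16.6, 19 and 20.8 CPM with ERF wild type and at 12.1, 13.9 and 14.2 CPM under the knockout label, and it fell by 0.49 on the log2 scale (SE 0.13, edgeR adjusted p 0.00735). With RAS deleted it stood at 23.6, 22.7 and 21.9 CPM against 11.4, 12.9 and 16.8 CPM and fell by 0.73 (SE 0.13, edgeR adjusted p 0.000125). Neither pair of ranges overlaps. The first fall did not pass without the knockout-labelled library numbered 1 (-0.40, edgeR adjusted p 0.0582) or with effective lengths in the fit (-0.33, edgeR adjusted p 0.273).

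In FA the Etv6 difference by ERF label had opposite signs in the 2 RAS states. With RAS present, values were 21.3 and 16.7 CPM for ERF wild type and 16.4, 12.3 and 14.7 CPM under the knockout label (log2 -0.40, SE 0.14, edgeR adjusted p 0.0786), which passed without the wild-type library numbered 2 (-0.54, edgeR adjusted p 0.0401). After RAS deletion the values were 21.2, 19 and 22.4 CPM against 27.2, 28.2 and 25.3 CPM, the 3 highest Etv6 values of the study. That difference of 0.37 passed (SE 0.12, edgeR adjusted p 0.0208), but not with effective lengths in the fit (0.26, edgeR adjusted p 0.32), nor without the wild-type library numbered 2 (0.30, edgeR adjusted p 0.0979) or the knockout-labelled libraries numbered 1 (0.35, edgeR adjusted p 0.0578) or 2 (0.33, edgeR adjusted p 0.0725). The RAS by ERF interaction for Etv6 in FA was 0.76 (SE 0.19, edgeR adjusted p 0.00384). It did not pass with effective lengths in the fit (0.53, edgeR adjusted p 0.225), without the RAS-present wild-type library numbered 1 (0.55, edgeR adjusted p 0.0658) or without all 4 wild-type libraries of that number (0.56, edgeR adjusted p 0.0509). In the group with the highest Etv6 (FA, ERF knockout, RAS deleted) the neural markers summed to 97.3 to 101 CPM, against 4.52 to 48.3 CPM in all other groups. Beside its wild-type counterpart, that group also had lower naive markers (636 to 662 against 1711 to 2507 CPM), higher epiblast-like markers (462 to 487 against 102 to 291 CPM), lower trophoblast markers (3.59 to 4.7 against 18.9 to 19.1 CPM) and higher fibroblast markers (6.05 to 7.35 against 2.11 to 3.59 CPM). Against their sums, Otx2 was lower (log2 -0.66, edgeR adjusted p 0.00261) and Cdx2 higher, on 6 to 10 against 0 to 5 counts per library (edgeR adjusted p 0.0483). In FA with RAS present, the knockout-labelled libraries also had lower epiblast-like sums (343 to 401 against 548 to 619 CPM). Their trophoblast sums were lower as well (0.938 to 1.51 against 2.27 to 2.52 CPM). Single markers are not given for that pair. The part of these markers in the Etv6 level was not tested.

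Among the 4 comparisons by ERF label, Etv3 passed in 1, 2iL with RAS deleted. There it stood at 41.5, 40.3 and 39.9 CPM with ERF wild type, its highest values of the study, and at 30.2, 27.7 and 27.1 CPM under the knockout label (log2 -0.52, SE 0.09, edgeR adjusted p 0.000133). With RAS present it stood at 33.7, 32.7 and 33.4 CPM against 28.4, 30.7 and 30.8 CPM, ranges that do not overlap but a difference of -0.15 that did not pass (SE 0.09, edgeR adjusted p 0.25). The RAS by ERF interaction in 2iL was -0.37 for Etv3 and did not pass (edgeR adjusted p 0.157), but it passed when only the groups compared were fitted (-0.37, edgeR adjusted p 0.0448). In FA the differences were 0.20 with RAS present (edgeR adjusted p 0.247) and -0.23 with RAS deleted (edgeR adjusted p 0.0514), the latter passing without the wild-type library numbered 2 (-0.28, edgeR adjusted p 0.0402) or 3 (-0.34, edgeR adjusted p 0.0038) and coming to -0.05 without the one numbered 1 or without all 4 of that number.

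For the ERF label, then, 3 of 4 members passed in 2iL with RAS present and 4 of 4 with RAS deleted, where 27.8% and 39.1% of all tested genes passed; 0 of 4 and 1 of 4 passed in FA, where 9.78% and 42.8% of all genes did. For the 0 of 4 in FA with RAS present, unadjusted edgeR p-values were 0.0399 for Elk3 and 0.0105 for Etv6, and DESeq2 passed none either. In 2iL Erf and Elk3 rose, Etv6 fell in both RAS states and Etv3 in 1; the call in FA was a rise of Etv6. Trophoblast markers (Cdx2, Gata3 and Elf5) also moved with the ERF label in 2iL, from 5.00 to 6.67 summed CPM with ERF wild type to 0.404 to 1.06 CPM under the knockout label. The neural markers Sox1 and Pax6 moved the other way, from 8.59 to 13.4 CPM to 16.1 to 19.9 CPM with RAS present and from 4.52 to 6.09 CPM to 14.1 to 17.5 CPM with RAS deleted. Mesoderm markers were low throughout but also apart in 2iL with RAS deleted, at 0.968 to 1.17 CPM with ERF wild type and 0.228 to 0.28 CPM under the knockout label. The part of these markers was not tested.

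**Figure D3:**
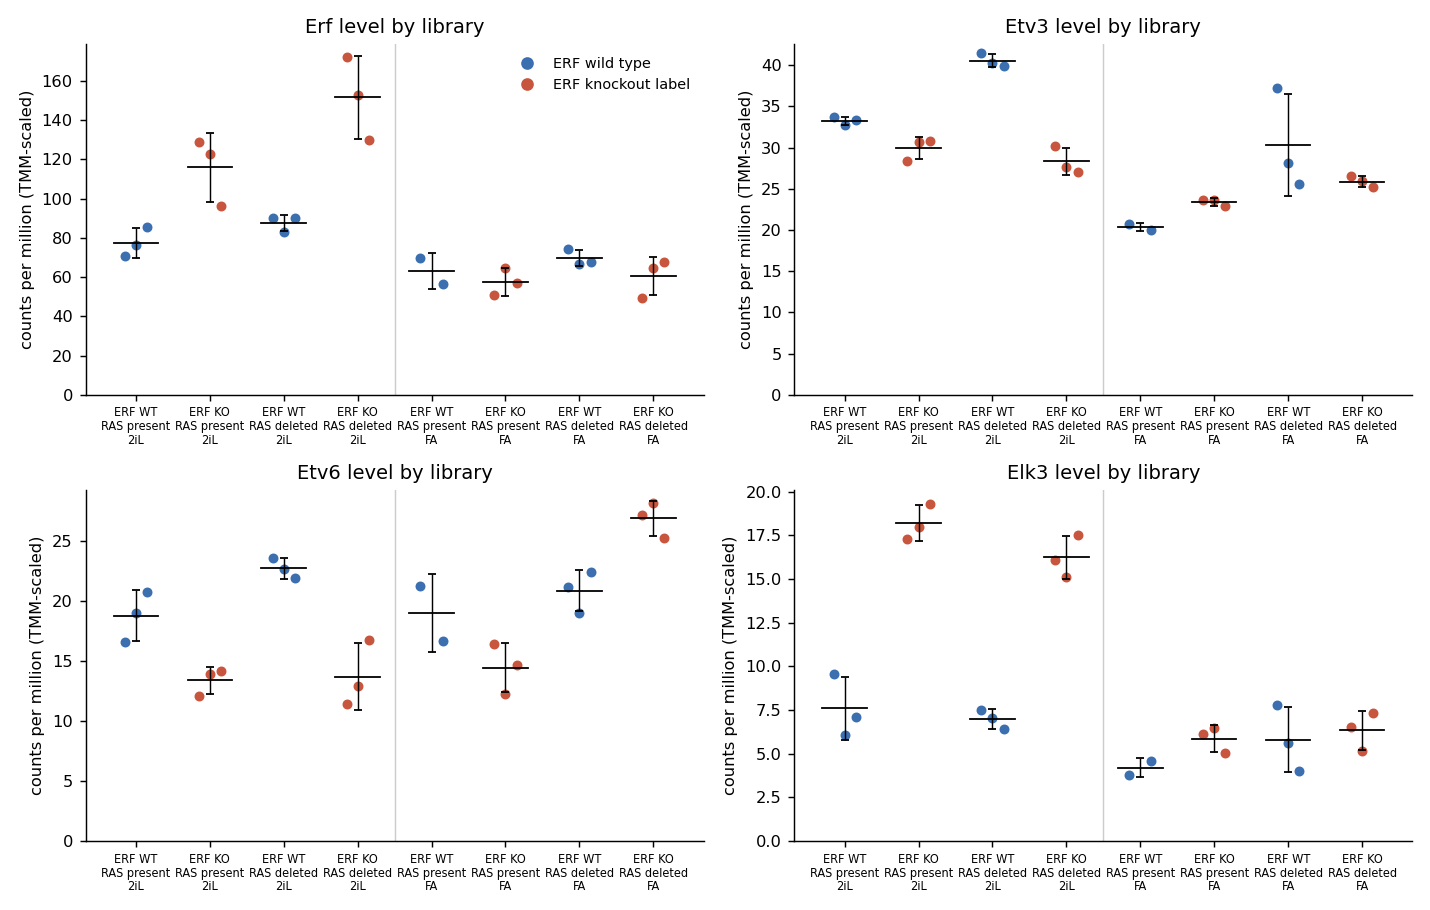
TMM-scaled CPM (vertical axis) of each member in the 23 libraries, by group; points are libraries, horizontal bars means and error bars SD, with 2iL left of the grey line and FA right. Erf and Elk3 are highest in the 2 ERF knockout groups in 2iL, Etv3 in 2iL with ERF wild type and RAS deleted, and Etv6 in FA with ERF knockout and RAS deleted.

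The next question was how the members change when cells leave 2iL for FA. Etv3 and Elk3 fell in the reference line, Erf and Etv6 did not pass. Etv3 went from 33.7, 32.7 and 33.4 CPM to 20.7 and 20.0 CPM, a fall of 0.71 on the log2 scale (SE 0.11, edgeR adjusted p 7.37e-06). Elk3 went from 9.59, 6.07 and 7.11 CPM to 3.81 and 4.59 CPM, a fall of 0.87 (SE 0.22, edgeR adjusted p 0.00224) that did not pass with effective lengths in the fit (-0.67, edgeR adjusted p 0.0721) or without the wild-type libraries numbered 1 (-0.54, edgeR adjusted p 0.0593). Both falls kept the FA libraries below every 2iL library of the line. Erf changed by -0.29 (SE 0.15, edgeR adjusted p 0.107), passing without the FA library numbered 1 (-0.47, edgeR adjusted p 0.0499), and Etv6 by 0.02 (SE 0.14, edgeR adjusted p 0.907).

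In the wild-type line after RAS deletion, Etv3 and Erf fell in FA. Etv3 fell by 0.42 (SE 0.09, edgeR adjusted p 0.000772), from 39.9 to 41.5 CPM in 2iL to 37.3, 28.1 and 25.6 CPM in FA. The FA library numbered 1 was the highest for both Etv3 and Elk3; without it, Elk3 fell by 0.54 (edgeR adjusted p 0.0249), while with it the change was -0.27 (SE 0.19, edgeR adjusted p 0.269). Erf fell by 0.33 (SE 0.13, edgeR adjusted p 0.0468), a call lost when any of 5 of the 6 libraries was left out (values from -0.38 to -0.30 over the 6) and without the libraries numbered 1 in all 4 wild-type groups (-0.37, edgeR adjusted p 0.115). Etv6 changed by -0.12 (edgeR adjusted p 0.468). The medium by RAS interaction in this line was 0.29 for Etv3 (edgeR adjusted p 0.146) and 0.60 for Elk3 (edgeR adjusted p 0.151), and both passed without the RAS-deleted FA library numbered 3 (0.40 and 0.81, edgeR adjusted p 0.0236 and 0.0276). Without the wild-type libraries numbered 1 the values were 0.16 for Etv3 and 0.06 for Elk3 (edgeR adjusted p 0.413 and 0.927).

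Under the ERF knockout label Erf and Elk3 fell in FA in both RAS states. Erf fell by 1.01 (SE 0.13, edgeR adjusted p 2.06e-06) with RAS present, or about 2-fold (-0.86 with effective lengths in the fit), and by 1.33 (SE 0.13, edgeR adjusted p 3.31e-08) with RAS deleted. Elk3 fell by 1.63 (3.10-fold, SE 0.19, edgeR adjusted p 1.56e-07) and by 1.35 (2.55-fold, SE 0.19, edgeR adjusted p 1.56e-06). These falls start from the same knockout-labelled 2iL libraries that stood above wild type, so they share those libraries with the rises given before.

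For the other 2 members under the knockout label, Etv3 fell in 1 RAS state and Etv6 rose in the other. Etv3 fell by 0.36 with RAS present (SE 0.09, edgeR adjusted p 0.00335) and changed by -0.13 with RAS deleted (edgeR adjusted p 0.248). Etv6 changed by 0.11 with RAS present (edgeR adjusted p 0.508) and rose by 0.97 with RAS deleted (1.96-fold, SE 0.13, edgeR adjusted p 1.10e-06, and by 0.60 with effective lengths in the fit), from 11.4, 12.9 and 16.8 CPM to 27.2, 28.2 and 25.3 CPM. It was the only rise of a member in FA that passed. Counts of members passing were 2, 2, 3 and 3 of 4 in the order ERF wild type with RAS present, wild type with RAS deleted, knockout with RAS present and knockout with RAS deleted, where 49.5%, 43%, 46.9% and 55.7% of all tested genes passed. Beside these changes, and apart from the naive and epiblast-like markers, the neural sum was higher in FA in all 4 comparisons (11.8 to 101 CPM, against 4.52 to 19.9 CPM in 2iL). The primitive endoderm sum was higher in FA with RAS present (29.7 to 52.4 against 9.29 to 29.6 CPM) and lower with RAS deleted (3.31 to 11.3 against 7.4 to 15.2 CPM), without overlap within either ERF state. The trophoblast sum was lower in FA with ERF wild type and RAS present (2.27 to 2.52 against 5.2 to 6.67 CPM). It was higher with RAS deleted, in wild type (18.9 to 19.1 against 5 to 5.48 CPM) and under the knockout label (3.59 to 4.7 against 0.404 to 0.84 CPM). In wild type with RAS deleted the higher sum was that of Gata3 (log2 2.46), while Cdx2 fell from 17 to 38 counts per library to 0 to 5 (edgeR adjusted p 4.69e-05) and Elf5 did not pass (0.47). The fibroblast sum was lower in FA with wild type and RAS deleted (2.11 to 3.59 against 4.36 to 5.54 CPM), where Col1a1 fell by 1.69, Thy1 differed by -0.04 and Col1a2 rose from 0 to 3 counts per library to 4 to 17 (edgeR adjusted p 0.00734). The mesoderm sum was higher under the knockout label with RAS present (0.652 to 1.06 against 0.325 to 0.481 CPM) and deleted (0.735 to 1.41 against 0.228 to 0.28 CPM). The part of these markers was not tested.

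**Figure D4:**
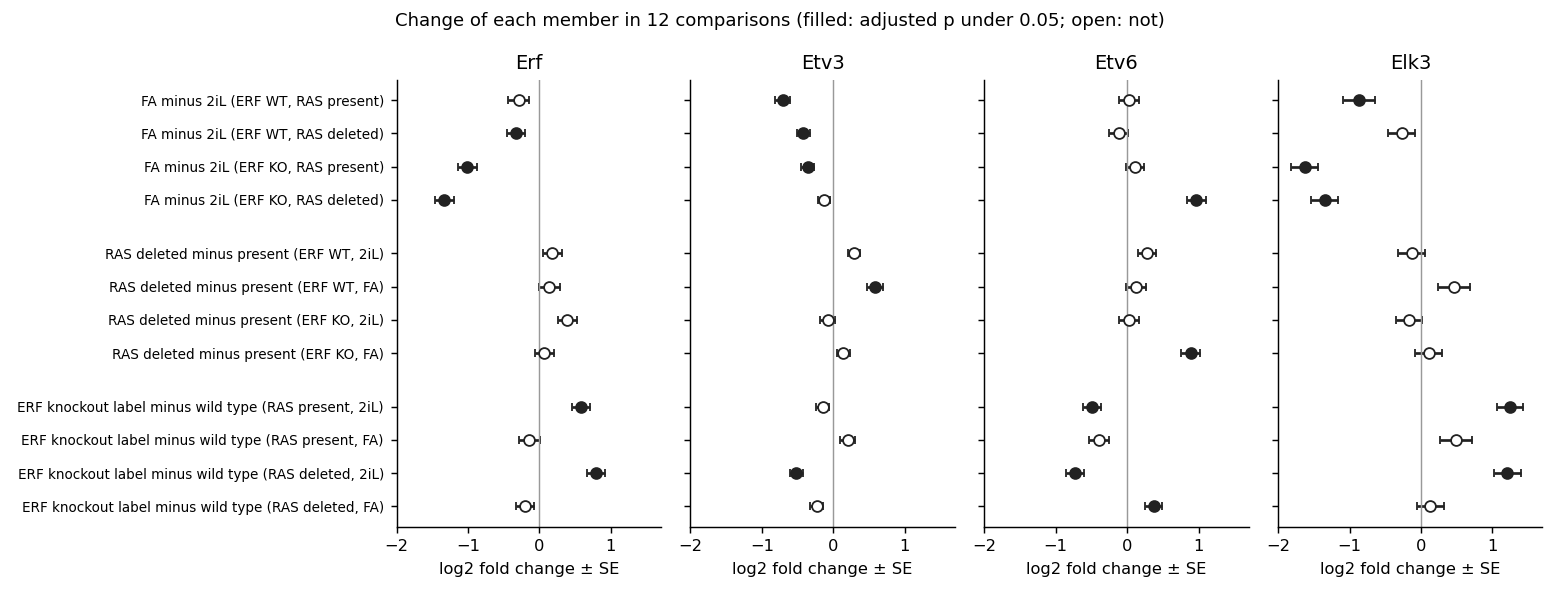
Fitted log2 fold changes with SE (horizontal axis) of the 4 members in the 12 comparisons (rows); filled points passed at an adjusted p under 0.05 and open points did not. The 2 knockout-label rows of FA minus 2iL lie near -1 or below for Erf and Elk3, and the RAS rows hold only 2 filled points, at 0.58 for Etv3 and at 0.89 for Etv6.

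The RAS comparisons ask whether the repressors' transcripts change on loss of the signal that acts on ERF protein. In 2iL, where MEK is inhibited in all groups, 0 of 4 members passed in either ERF state, and only 5.7% of all tested genes passed with ERF wild type and 1.31% under the knockout label. By unadjusted edgeR p, Etv3 (0.29, p 0.00541) and Etv6 (0.28, p 0.0418) were below 0.05 with ERF wild type, and Erf (0.39, p 0.00751) under the knockout label; DESeq2 passed none of the 4 in either state. Their adjusted edgeR p-values were 0.0699, 0.212 and 0.149. The Etv3 difference passed when only the compared groups were fitted (0.29, edgeR adjusted p 0.0394) and with effective lengths in the fit (0.36, edgeR adjusted p 0.0464), and the Erf difference passed without a filter on low counts (0.38, edgeR adjusted p 0.00217).

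In FA 1 of 4 members passed for RAS deletion in each ERF state, no larger a share than among all genes. With ERF wild type, Etv3 rose from 20.7 and 20.0 CPM to 37.3, 28.1 and 25.6 CPM (log2 0.58, SE 0.11, edgeR adjusted p 0.000137), where 41.3% of all genes passed. The rise was 0.44 without the wild-type libraries numbered 1 and still passed (edgeR adjusted p 0.00141). Elk3 differed by 0.46 (SE 0.22, edgeR adjusted p 0.102) and passed without the RAS-deleted library numbered 3 (0.68, edgeR adjusted p 0.0123), but was 0.08 without the wild-type libraries numbered 1 (edgeR adjusted p 0.809). Under the knockout label, Etv6 rose from 16.4, 12.3 and 14.7 CPM to 27.2, 28.2 and 25.3 CPM (log2 0.89, SE 0.13, edgeR adjusted p 2.45e-05), where 26.4% of all genes passed, while Etv3 changed by 0.14 (edgeR adjusted p 0.275). The RAS by ERF interactions of Etv3 and Etv6 in FA did not pass without the wild-type libraries numbered 1 (-0.30 and 0.56, edgeR adjusted p 0.0712 and 0.0509). The naive markers moved with the Etv3 rise, from 660 to 692 summed CPM with RAS present to 1711 to 2507 CPM with RAS deleted, and the trophoblast markers from 2.27 to 2.52 CPM to 18.9 to 19.1 CPM. The neural markers went from 47.5 to 47.9 CPM to 11.8 to 21.4 CPM, and the primitive endoderm markers (Gata4, Gata6 and Sox17) from 29.7 to 52.4 CPM to 3.31 to 7.38 CPM. The epiblast-like markers went from 548 to 619 CPM to 102 to 291 CPM and the fibroblast markers from 4.36 to 5.25 CPM to 2.11 to 3.59 CPM. Against their sums, Otx2 rose (log2 1.03, edgeR adjusted p 0.000191) while Fgf5, Pou3f1 and Dnmt3b fell. Cdx2 likewise fell, from 4 to 20 counts per library to 0 to 5 (edgeR adjusted p 0.0126), while Gata3 rose by 3.48. The primitive endoderm sum was also lower beside the Etv6 rise under the knockout label, at 34.4 to 42.8 CPM with RAS present and 7.02 to 11.3 CPM with RAS deleted. There the neural markers went from 39.3 to 48.3 CPM to 97.3 to 101 CPM, the epiblast-like markers from 343 to 401 CPM to 462 to 487 CPM, the trophoblast markers from 0.938 to 1.51 CPM to 3.59 to 4.7 CPM and the fibroblast markers from 4.14 to 4.97 CPM to 6.05 to 7.35 CPM. The part of these markers was not tested.

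Tests of the differences between effects gave 7 passing interactions of 24. The ERF label changed the response to FA of Erf with RAS present (-0.72, SE 0.20, edgeR adjusted p 0.0238), of Erf with RAS deleted (-0.99, SE 0.19, edgeR adjusted p 0.000412), of Elk3 with RAS deleted (-1.08, SE 0.27, edgeR adjusted p 0.00406) and of Etv6 with RAS deleted (1.10, SE 0.18, edgeR adjusted p 8.61e-05). For Elk3 with RAS present the value was -0.76 (SE 0.29, edgeR adjusted p 0.102), -0.76 without a filter on low counts (edgeR adjusted p 0.0322), -0.98 without the 2iL wild-type library numbered 1 (edgeR adjusted p 0.0283) and -1.10 without the wild-type libraries numbered 1 (edgeR adjusted p 0.00848). For Etv3 the values were 0.35 with RAS present and 0.29 with RAS deleted and did not pass (edgeR adjusted p 0.128 and 0.114). Both passed without the 4 wild-type libraries numbered 1 (0.38 and 0.44, edgeR adjusted p 0.0471 and 0.00212). The latter also passed without the RAS-deleted FA wild-type library numbered 1 alone (0.46, edgeR adjusted p 0.0011). Leaving those 4 out ended the call of Erf with RAS present (-0.48, edgeR adjusted p 0.303) and of the 2 RAS by ERF interactions in FA. RAS deletion changed the FA response of Etv6 under the knockout label (0.86, SE 0.19, edgeR adjusted p 0.00391), and the RAS response in FA differed by ERF label for Etv3 (-0.43, SE 0.14, edgeR adjusted p 0.0253) and Etv6. Members passing numbered 1 of 4 and 3 of 4 for medium by ERF (RAS present and deleted), where 9.34% and 26.4% of all genes passed, 0 of 4 and 1 of 4 for medium by RAS (ERF wild type and knockout; 24.5% and 13.1%), and 0 of 4 and 2 of 4 for RAS by ERF (2iL and FA; 1.57% and 28%). For the 2 counts of 0, no unadjusted edgeR p of the 4 members was under 0.05 except that of Etv3 in 2iL (0.0113), and DESeq2 passed none.

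The order of the 8 groups gives the same picture per gene in CPM. For Erf, ERF knockout with RAS deleted in 2iL (152 CPM) and ERF knockout with RAS present in 2iL (116 CPM) stood apart from each other and from the rest, and the remaining 6 groups, from 87.8 down to 57.5 CPM, each overlapped the next. The 2 knockout groups were apart only narrowly (130 to 172 against 96.1 to 129 CPM). Their difference did not pass (0.39, edgeR adjusted p 0.149), and in TPM their ranges overlapped (35.9 to 45.5 against 29.1 to 40.3 TPM). For Elk3, both knockout groups in 2iL (18.2 and 16.2 CPM) overlapped each other and stood apart from the other 6, which ran from 7.59 to 4.2 CPM with each overlapping the next. For Etv6 the knockout group with RAS deleted in FA (26.9 CPM) stood apart at the top, and the knockout groups in 2iL were lowest (13.7 and 13.4 CPM). For Etv3 the lowest group was the reference line in FA (20.3 CPM), apart from the next.

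Across the 23 libraries on the log2 CPM scale, Erf and Elk3 had a Pearson r of 0.81, Etv6 and Elk3 of -0.60 and Erf and Etv6 of -0.53, while Etv3 correlated with the others at 0.36 or less. These values describe libraries that share groups, and they carry no test. Among 10136 genes of at least 5 CPM on average, those most like Erf were Itgb7 (r 0.93), Acap1 (0.92) and Tgm1 (0.91). Among the genes most like Elk3 were Mymx (0.96), which encodes a muscle fusion peptide and ran from 2.27 to 68.7 CPM, and Irf2bpl (0.95). For Etv3 they were B4galt5, Plekhg3 and Ksr1, a scaffold of the RAF, MEK and ERK kinases (0.92 each), and for Etv6 Cactin (0.91), the histone gene Hist1h4a (0.90) and the tubulin gene Tubb5 (0.89).

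The genes next to the members were compared for the ERF label as well. None of the 4 next to Erf passed in 2iL. Gsk3a, a glycogen synthase kinase gene, changed by 0.03 and 0.16 under the ERF knockout label in 2iL (edgeR adjusted p 0.772 and 0.0599), Cic, which encodes the ERK-controlled repressor Capicua, by -0.06 and -0.16 (edgeR adjusted p 0.638 and 0.132) and Pafah1b3 by -0.09 and 0.20 (edgeR adjusted p 0.587 and 0.119). With RAS deleted, Gsk3a passed when only the groups compared were fitted (0.18, edgeR adjusted p 0.0301) and without the knockout-labelled library numbered 2 (0.20, edgeR adjusted p 0.0496), and Cic without the wild-type libraries numbered 1 (-0.19, edgeR adjusted p 0.0483). In FA with RAS deleted Cic passed for the label (-0.21, edgeR adjusted p 0.0421). That call was lost without the filter on low counts, with effective lengths in the fit, where the sign turned (0.08, edgeR adjusted p 0.64), and without the wild-type libraries numbered 1 (-0.15, edgeR adjusted p 0.127). It was also lost without the wild-type library of that group numbered 1 or the knockout-labelled one numbered 1 or 2 (-0.16, -0.17 and -0.21). Cic fell in FA in all 4 comparisons of medium, by 0.60 to 0.95 on the log2 scale. The noncoding neighbour 9130221H12Rik passed in 3 of 12 comparisons, none of them for the ERF label.

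Beside Etv6, Bcl2l14, a gene of the BCL2 family, fell under the knockout label in 2iL, as Etv6 did. It had 94 to 174 counts per wild-type library and 29 to 57 per knockout-labelled library, for log2 changes in the RAS-present and RAS-deleted cells at -1.43 and -1.77 (edgeR adjusted p 3.72e-05 and 1.31e-06), against -0.49 and -0.73 for Etv6. In FA with RAS deleted, where Etv6 rose by 0.37, Bcl2l14 fell by 3.78 (edgeR adjusted p 8.06e-11). The neighbour on the other side of Etv6 that passed, Smim10l1, fell by 0.70 in 2iL with RAS deleted (edgeR adjusted p 0.0264), a call lost without the wild-type library numbered 1 or 2 or any 1 of the knockout-labelled libraries.

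Beside Etv3, Arhgef11 fell in 2iL by 0.27 with RAS present and by 0.48 with RAS deleted (edgeR adjusted p 0.00842 and 2.58e-05), against -0.15, which did not pass, and -0.52 for Etv3. Fcrl5, an Fc receptor-like gene, was lower under the knockout label with RAS deleted, on few counts: 11 to 17 against 2 to 4 per library in 2iL (edgeR adjusted p 0.00169) and 37 to 51 against 5 to 13 in FA (log2 -2.36, edgeR adjusted p 7.08e-06). Beside Elk3, Gm32468, at most 0.608 CPM in any library, passed in 2iL with RAS present (1.60, edgeR adjusted p 0.0266), but not by DESeq2 (1.66, adjusted p 0.0973), with effective lengths in the fit (1.07, edgeR adjusted p 0.263) or without the filter on low counts (1.60, edgeR adjusted p 0.122). It was also lost without any 1 of the knockout-labelled libraries or the wild-type library numbered 2 or 3. Gm17745, at most 1.1 CPM in any library, did not pass in 2iL (1.27 with RAS present and 1.19 with RAS deleted, edgeR adjusted p 0.0882 and 0.164). It passed in both without the wild-type libraries numbered 1 (1.59 and 2.48, edgeR adjusted p 0.0473 and 0.0198). Whether a member and its neighbour change together was not tested.

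Of the other 23 ETS genes, 19 were tested, and their counts are given as a description. Under the ERF knockout label in 2iL, 1 rose and 7 fell with RAS present and 0 rose and 10 fell with RAS deleted, with list medians of -0.17 and -0.42 beside -0.00 and -0.01 over all genes. Over all genes 2702 rose and 2966 fell with RAS present (27.8%), and 3916 rose and 4059 fell with RAS deleted (39.1%). The changes of Spic, an ETS factor of red pulp macrophages, were -4.47 and -4.17 (edgeR adjusted p 4.41e-08 and 3.99e-08), followed by Etv2 with RAS present (12 to 19 counts per wild-type library and 1 in each knockout-labelled library, too few for a fold) and Etv1 (-2.06) with RAS deleted. In FA the label gave 0 higher and 3 lower with RAS present, led by Etv4 (-0.65) and Elf3 (-0.64), and 2 higher and 8 lower with RAS deleted, led by Spic (-3.66) and Elf3 (-3.19), beside 891 higher and 1101 lower, and 4395 higher and 4330 lower, over all genes. In that RAS-deleted pair Spic had 74 to 166 counts per wild-type library and 9 in each knockout-labelled library. RAS deletion in FA moved 8 up and 3 down with ERF wild type, and 3 up and 3 down under the knockout label, beside 41.3% and 26.4% of all genes. With ERF wild type the largest fitted changes were those of Spic (4.00, from 6 to 7 counts per library to 74 to 166) and of Ehf. Ehf went from 1 to 2 counts per library to 16 to 34, too few for a fold. Under the knockout label they were those of Etv4 (-5.39), an ERK-induced activator, and Fli1 (3.25, from 1 to 7 counts per library to 30 to 49). FA against 2iL gave 3 higher and 5 lower, 4 and 6, 4 and 3, and 8 and 8 in the order used for the members, with a list median from -0.17 to 0.15, where 43% to 55.7% of all genes passed.

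The 15 partner genes, listed for their known ties to these repressors (among them Mapk3, Srf, Ddx20, L3mbtl1 and the corepressor genes Sin3a, Sin3b, Ncor1, Hdac1 to Hdac3, Ctbp1 and Ctbp2), were all tested. For the ERF label in 2iL, 0 rose and 5 fell with RAS present, and 4 rose and 5 fell with RAS deleted, where 27.8% and 39.1% of all genes passed. Sin3b, a scaffold for histone deacetylases, fell most, by 0.78 and 0.79. In FA, 0 rose and 1 fell with RAS present (Sin3a, -0.34), and 6 rose and 6 fell with RAS deleted, with Sin3b at -1.18 and L3mbtl1 at 1.20, beside 9.78% and 42.8% of all genes. List medians were -0.15, -0.06, -0.06 and -0.12. RAS deletion passed for 0 of 15 in 2iL in both ERF states by edgeR, beside 5.7% of all genes with ERF wild type and 1.31% under the knockout label. In each state 3 of 15 had an unadjusted edgeR p under 0.05, and DESeq2 passed 0. In FA, RAS deletion passed for 9 and 4 of 15, beside 41.3% and 26.4% of all genes.

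Genes that ERK signalling induces served as a readout of the pathway; Etv4 and Etv5 belong to this list and to the ETS list. Of 20, 14 fell and 1 rose with RAS deletion in FA with ERF wild type (median -1.54, against 0.00 over all genes, of which 41.3% passed), led by Spry4 (-6.52, from 540 to 1064 counts per library to 2 to 13) and Spry2 (-4.01), which encode feedback inhibitors. Under the knockout label 14 fell and 2 rose (median -0.81, beside 26.4% of all genes passing), led by Etv4 (-5.39) and Spry4 (-4.41). In 2iL RAS deletion passed for 1 of 20 with ERF wild type (Dusp5, 0.64; 8 of 20 at an unadjusted p under 0.05 and 3 by DESeq2) and for 0 of 20 under the knockout label by edgeR, with 1 at an unadjusted p under 0.05 and 0 by DESeq2, beside 5.7% and 1.31% of all genes by edgeR. FA against 2iL raised 14 and lowered 1 in the reference line (median 1.18) and raised 5 and lowered 7 after RAS deletion (median -0.01), beside 49.5% and 43% of all genes. Under the knockout label FA raised 14 and lowered 2 with RAS present (median 1.06), beside 46.9% of all genes. With RAS deleted it raised 7 and lowered 6 (median 0.05), beside 55.7%. The ERF label in 2iL moved the list in both directions, 4 up and 5 down with RAS present and 7 up and 5 down with RAS deleted (27.8% and 39.1% of all genes passed). Spry4 had fitted changes of 3.17 and 4.68. They rest on 9 to 18 and on 4 counts per wild-type library, against 95 to 116 and 84 to 96. Ccnd1, which encodes cyclin D1, changed by -2.43 and -2.68.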

How the data were processed

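RNA from 23 libraries was depleted of ribosomal RNA and sequenced as 75-base pairs, per the labels' protocols. The authors' processing used bcl2fastq 2.20.0, fastp 0.20.0 and Salmon with mm10, per the submitters' processing notes; the annotation is not given in the sources used here. The deposited table holds whole counts per gene, equal in all cells to the rounded estimated counts of the per-library tables. Those deposited per-library tables also hold expected counts, TPM and the lengths, in bases, as other values.

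Counts were fitted with edgeR 4.0.16 in R 4.3.3 (TMM, filterByExpr, robust quasi-likelihood, 1 coefficient per group over all 23 libraries) for 12 comparisons and 6 interactions, with Benjamini-Hochberg adjustment over 20372 genes. Errors of fold changes are fitted SE. Of 22 pairs of replicates none agreed within sampling noise (chi-square per degree of freedom 3.04 to 44.9). Mean lengths were tested by exact permutation within strata. Promoters came from RefSeq (GRCm38.p6), transcripts from GENCODE M21. The code was tested on simulated data.

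Members and gene lists were chosen with earlier results of these data known. Named genes are the members, up to 2 list genes with the largest change among those passing in a comparison, the neighbours of a member, and the 3 genes most correlated with it. Alternatives were RLE factors, DESeq2 1.42.0, no filter, fewer groups, a replicate block, effective lengths and leaving out libraries; leaving out the 4 wild-type libraries numbered 1 was added after seeing the data. The targeted RAS gene and some genes under these rules are not reported here.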

Additional observations from a re-analysis of the deposited data

Results flagged for a closer look

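Under the ERF knockout label, Erf responded to FA differently from wild type: the log2 changes were -1.01 against -0.29 with RAS present (a tested difference of -0.72) and -1.33 against -0.33 with RAS deleted (-0.99). The first did not pass when any 1 of 5 libraries was left out (wild type 2iL numbered 1, knockout 2iL numbered 1 or 2, wild type FA numbered 1, knockout FA numbered 1; values from -0.68 to -0.54), nor without all wild-type libraries numbered 1 (-0.48). With RAS deleted, the FA responses of Elk3 were -1.35 and -0.27 by ERF label, a tested difference of -1.08. Those of Etv6 were 0.97 and -0.12, a tested difference of 1.10. Under the knockout label Etv6 also responded to FA by 0.97 with RAS deleted and by 0.11 with RAS present, a tested difference of 0.86 that was 0.58 and did not pass with effective lengths in the fit. In FA, RAS deletion changed Etv3 by 0.14 under the knockout label and by 0.58 with wild type, a tested difference of -0.43 that did not pass without the wild-type library with RAS deleted numbered 1 (-0.26) or the one with RAS present numbered 2 (-0.43, edgeR adjusted p 0.0603), without a filter on low counts (-0.42) or when only the groups compared were fitted (-0.47), nor without all wild-type libraries numbered 1 (-0.30). Without the knockout-labelled library with RAS deleted numbered 3 it lay at the threshold (-0.42, edgeR adjusted p 0.05 as rounded). In FA, RAS deletion changed Etv6 by 0.89 and 0.13, a tested difference of 0.76 that did not pass without the wild-type library with RAS present numbered 1 (0.55), without all wild-type libraries of that number (0.56) or with effective lengths (0.53). The effects of several of these share their groups.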

How the results depend on the processing

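Of the 48 member changes in the 12 comparisons, the 20 that passed kept their sign under each alternative run, while 7 of the 28 that did not pass changed sign under at least 1 of them (Elk3 for the ERF label in FA with RAS deleted, for example, ran from -0.08 to 0.40 when 1 library was left out); DESeq2 and RLE factors changed the call of none. Without a filter on low counts, 3 more passed: Erf for FA with ERF wild type and RAS present (-0.28), Erf for RAS deletion under the knockout label in 2iL (0.38) and Etv6 for the ERF label in FA with RAS present (-0.40). With effective lengths, Elk3 for FA with ERF wild type and RAS present (-0.67), Etv6 for the ERF label in 2iL with RAS present (-0.33) and Etv6 for it in FA with RAS deleted (0.26) no longer passed, while Etv3 for RAS deletion in 2iL with wild type (0.36) and Erf for the ERF label in FA with RAS deleted (-0.42) did. Fitting only the compared groups made Etv3 for RAS deletion in 2iL pass (0.29). Labels give groups the same replicate numbers, but in no comparison did all same-numbered deviations correlate above 0.1; the replicate block made that Etv3 change (0.28) and Erf for RAS deletion under the knockout label in 2iL (0.38, edgeR adjusted p 2.05e-06) pass and changed no other of the 48; among the interactions it ended that of Erf with medium and ERF label with RAS present (-0.71) and made that of Etv3 with RAS and ERF label in 2iL pass (-0.37). Among the neighbours of Erf, for the ERF label with RAS deleted, the replicate block ended the call of Cic in FA (-0.21, edgeR adjusted p 0.115) and made Gsk3a pass in 2iL (0.18, edgeR adjusted p 0.0424). In 3 comparisons, RAS deletion under the knockout label in either medium and FA under it with RAS deleted, every library correlated best with its own number.

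Without the wild-type libraries numbered 1, Elk3 (-0.54) and Erf (-0.37) no longer passed for FA with wild type, the former with RAS present and the latter with RAS deleted, and Elk3 passed for FA with wild type and RAS deleted (-0.49) and for the ERF label in FA with RAS deleted (0.40). Leaving out each library in turn gave, for changes whose call moved, -0.47 to -0.16 for Erf and FA with wild type and RAS present, -0.38 to -0.30 for Erf and -0.54 to -0.06 for Elk3 with RAS deleted, 0.20 to 0.68 for Elk3 and RAS deletion in FA with wild type, and for the ERF label -0.56 to -0.40 (Etv6, 2iL, RAS present), -0.54 to -0.18 (Etv6, FA, RAS present), -0.34 to -0.05 (Etv3, FA, RAS deleted) and 0.30 to 0.42 (Etv6, FA, RAS deleted). The cause was not tested for any of these. The Erf length difference passed under each alternative run (338 to 401 bases without 1 library). Requiring 2-fold as well left 6 of the 20 member calls and moved 25 of 36 list counts by over 1.5 times. Other settings moved list counts 22 times. For RAS deletion in 2iL with wild type, the ETS count of 1 became 4 without the filter, 0 with effective lengths and 3 without the wild-type libraries numbered 1, and the ERK-response count of 1 became 4 without the filter, 0 with effective lengths and 3 by DESeq2. Under the knockout label the counts of 0 there became 1 for ETS genes (DESeq2, no filter, only the groups compared, and without those libraries), 2 (no filter) or 1 (only the groups compared, and without those libraries) for ERK-response genes and 1 for partners (without those libraries). The ERK-response count for the ERF label in FA with RAS present went from 6 to 13 without the filter. Partner counts for the ERF label with RAS present went in 2iL from 5 to 8 without those libraries and to 3 with only the groups compared, and in FA from 1 to 2 by DESeq2 and to 0 with only the groups compared. For RAS deletion in FA they went from 9 to 5 with only the groups compared (wild type) and from 4 to 7 without those libraries (knockout label), and for FA with wild type and RAS deleted from 9 to 5 with effective lengths. Elk3, with 97 to 368 counts per library, is limited most by depth.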

Other observations

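The 12 genes whose mean transcript length was apart by ERF label in all 4 pairs of groups, chosen here after their values were seen, include Iqgap1, a cytoskeletal scaffold that binds RAF, MEK and ERK (6582 bases on average under the knockout label and 5980 with wild type), Pfkp, a phosphofructokinase (3659 and 3339 bases), and Mtdh (2397 and 2245 bases). Krt42 and Gm15506 went the other way (1094 against 1411 and 2705 against 3129 bases), at 2.13 and 3.94 CPM on average. In bases, the Erf difference was the second largest lengthening of the 12 after that of Iqgap1.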
